A study of Homo sapiens with 8 samples.

Results

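KIF3B is a motor subunit of kinesin-2, and the comparison described here sets KIF3B-/- cells beside isogenic controls in WTC11, a human induced pluripotent stem cell line. Of the 8 libraries in the series 5 belong to it by their labelled cell line: 2 controls and 3 KIF3B knockouts. Control 1 and knockouts 1 and 2 were made with guide RNA 1, and control 2 and knockout 3 with guide RNA 2. All 5 came from untreated, undifferentiated cells kept without feeder cells in mTeSR1, and polyA RNA of 100 to 1000 cells per library was amplified with SMART-Seq chemistry before Nextera XT preparation. The other 3 libraries, from the embryonic stem cell line WA09, are 2 controls, used below for a few values, and 1 KIF3A-/- library. Several clones are mentioned for the series, but whether each library is a clone or culture of its own is not labelled, so the p-values below describe how far these 5 libraries scatter, and that scatter may be technical. Of the 58302 genes in the count table, the 12038 with at least 10 counts in 3 or more of the 5 libraries were tested, 11507 of them protein coding.

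Heterotrimeric kinesin-2 joins the motors KIF3A and KIF3B to the adaptor KIFAP3. It hauls trains of intraflagellar transport proteins from the base of the primary cilium to its tip, and it also carries vesicles and junction proteins elsewhere in the cell. Cilia are the compartment in which vertebrate cells receive Hedgehog ligands, so receptors, regulators and the GLI transcription factors of that pathway pass through them.

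The 2 controls held 2161890 and 2234379 counts and the 3 knockouts 2632475, 2387357 and 2875163. Every knockout library was thus deeper than both controls, and it also had more detected genes (17469 to 18562, against 16658 and 17348). Levels are given as CPM, counts scaled to the library's depth by TMM over the genes tested. A count of 0 allows up to 3 counts, 1.04 to 1.39 CPM of a library's total, and this covers counting error only. The cells carried the markers of their label: POU5F1 stood at 227 CPM in controls and 191 in knockouts, SOX2 at 115 and 102, and NANOG at 60.1 and 56.2 (means over 2 and 3 libraries). The 12 pluripotency markers summed to 5511 and 6067 CPM in the controls and 5962 to 6340 in the knockouts, with 7 of the 12 higher in knockouts and 5 lower.

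No gene passed the edgeR quasi-likelihood test at an adjusted p under 0.05, which is 0.0% of the genes tested. The smallest adjusted p was 0.196, shared by 75 genes. At an unadjusted p under 0.05 there were 1975 genes, of which 1183 (9.83%) were higher and 792 (6.58%) lower in knockouts. Without any difference 601.9 would be expected, but genes share the same libraries, so the number can lie far from this. With the number of detected genes as a covariate there were 677. Limma voom called 0 genes, while DESeq2 called 219 higher (1.82%) and 6 lower (0.0498%). In 2161 genes (18.0%) every knockout lay above both controls, and in 2262 (18.8%) every knockout lay below both. These genes are called entirely higher and entirely lower below, and every direction that follows describes genes that edgeR did not call.

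The kinesin-2 subunits were examined first. KIF3B (GRCh38 chromosome 20, 32277664 to 32335011) held 71 and 59 counts in the controls and 129, 86 and 107 in the knockouts. As CPM these are 32.5 and 26.4 against 49.1, 37.6 and 37.7, so no knockout library had less KIF3B RNA than a control. The log2 difference was 0.49 ± 0.30 (SE, edgeR adjusted p = 0.451), and RNA level therefore gives no check of the knockout labels. KIF3A, the other motor of the trimer, had 60.3 and 46.1 CPM in controls and 51.7, 40.2 and 46.6 CPM in knockouts, with overlapping groups. KIFAP3, the adaptor, was scarce at 6.40 and 8.05 CPM in controls and 15.2, 8.74 and 8.82 in knockouts. KIF3C, an alternative partner of KIF3A, differed more between the controls (51.7 and 24.1 CPM) than between the group means (37.9 and 44.1 CPM). KIF17, the motor of homodimeric kinesin-2, had 12 and 1 counts in the controls and 3, 15 and 20 in the knockouts. Leaving out 1 control turned the sign of KIF3A, KIF3C and KIF17, and none of the 5 had an unadjusted p under 0.05.

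Among the other kinesins, KIF20A, a kinesin of cytokinesis, had 110 and 113 CPM in controls and 181, 171 and 190 in knockouts, a log2 difference of 0.70 ± 0.14. KIF20B, a related mitotic kinesin, went the other way, with 223 and 195 CPM in controls and 158, 140 and 135 in knockouts (-0.53 ± 0.14). KIF13B had 3 and 1 counts in the controls and 19, 13 and 37 in the knockouts, and it passed the filter only through the knockouts. Neither member of the KIF20 pair overlapped between groups, and over all 29 kinesins outside kinesin-2 the median was 0.23, with 9 entirely higher and 3 entirely lower, beside 18.0% and 18.8% of all genes. That median was 0.0879 without knockout 3, 0.13 without control 1, 0.14 without control 2 and 0.0499 with the length trend removed.

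The 15 higher genes with the smallest p, taken among genes that averaged 10 CPM or more and whose groups did not overlap, all had an edgeR adjusted p of 0.196. Log2 differences ran from 0.83 to 2.70, and all 15 were also called by DESeq2, which was run on the same counts. SMG5, which recruits phosphatase in nonsense-mediated decay, had 139 and 146 CPM in controls and 257, 350 and 327 in knockouts (log2 difference 1.13 ± 0.16). MTMR4, an endosomal lipid phosphatase, had 60 and 56 counts against 193, 194 and 242 (1.63 ± 0.24). Both controls lay close together in these genes and well under the lowest knockout, which choosing genes by the smallest p favours. USP9X, an X-linked deubiquitinase, had 183 and 233 CPM in controls and 370, 524 and 565 in knockouts (1.22 ± 0.20).

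Among the 15, GAK, LGR4, NUP210 and TRAM2 act at membranes or vesicles. Whether such genes are more common there than among all genes was not tested. GAK, the kinase that strips clathrin coats from vesicles, had 39.8 and 42.5 CPM in controls and 95.9, 109 and 139 in knockouts (1.48 ± 0.23). LGR4, a receptor for R-spondins that amplifies Wnt signalling, had 99.7 and 127 CPM in controls and 202, 267 and 258 in knockouts (1.09 ± 0.18). ANKRD28, a subunit of a protein phosphatase complex, had 53.9 and 70.2 CPM against 142, 150 and 207 (1.42 ± 0.23). In each of the 3 the lowest knockout lay above the highest control by more than the controls differed, which the same choice favours. NUP210, a membrane-spanning nucleoporin, had 50.3 and 41.6 CPM in controls and 122, 104 and 135 in knockouts (1.39 ± 0.22), and NUP188 of the inner pore ring had 101 and 136 CPM against 239, 297 and 405. TRAM2, a membrane protein of the secretory translocon, had 33.8 and 26.8 CPM in controls and 84.1, 104 and 78.6 in knockouts (1.55 ± 0.25). ANOS1, a secreted matrix protein encoded on the X chromosome, had 83.7 and 118 CPM against 194, 208 and 219 (1.04 ± 0.18). The other 4, CDH1, DLG5, GGA2 and GPR161, are given with their groups below. FAR1, which makes fatty alcohols for ether lipids, had the tightest groups: 80.0 and 79.1 CPM in controls and 162, 159 and 158 in knockouts.

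**Figure D1:**
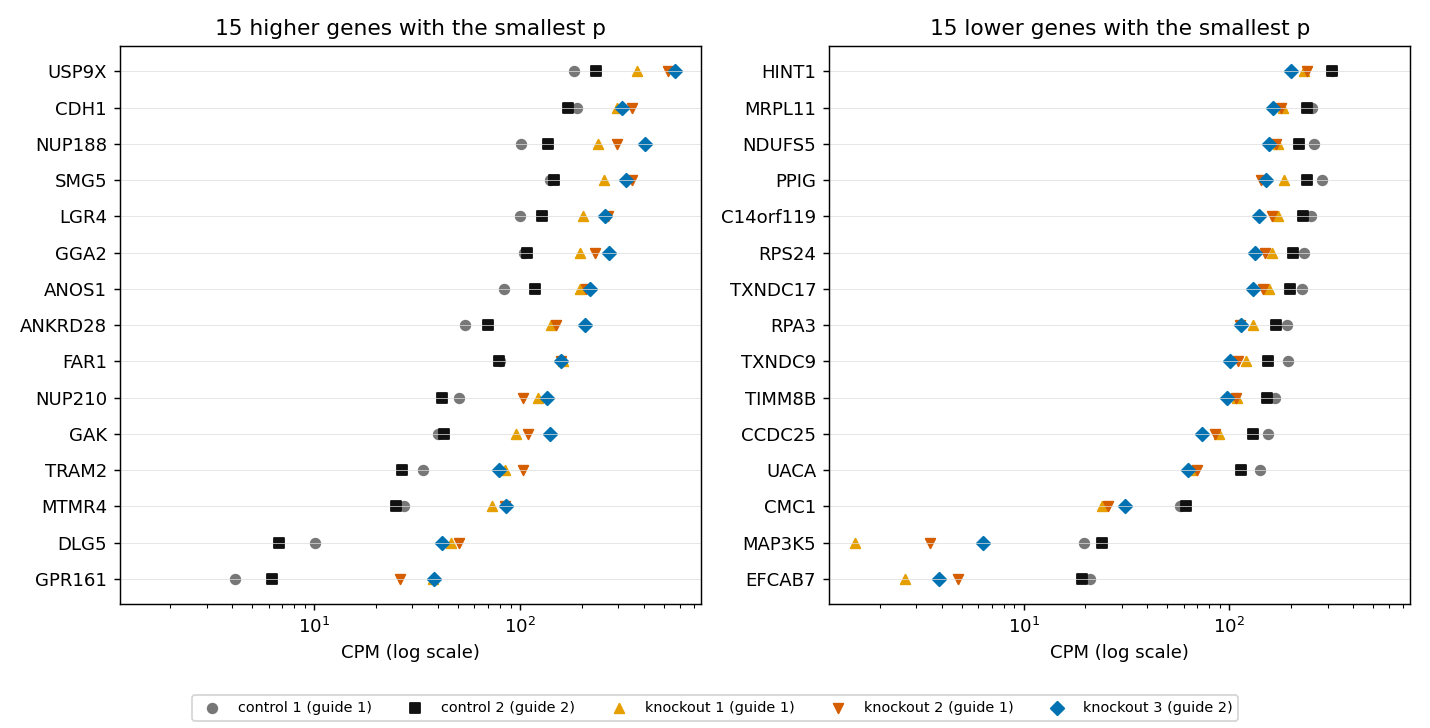
CPM on a log axis of the 15 higher (left) and 15 lower (right) genes with the smallest p, 1 symbol per library (grey and black for controls, coloured for knockouts). The groups do not overlap in any of the 30 genes, which the rule for choosing them required. GPR161 and EFCAB7 are in the last row of each panel.

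The 15 lower genes with the smallest p had adjusted p from 0.196 to 0.220 and log2 differences from -0.48 to -2.51. The largest was in MAP3K5, the stress kinase ASK1 upstream of JNK and p38, with 43 and 54 counts in controls and 4, 8 and 18 in knockouts, or 19.7 and 24.1 CPM against 1.52, 3.50 and 6.35 (-2.51 ± 0.62). EFCAB7, which tethers the EVC complex near the base of the cilium for Hedgehog signalling, had 46 and 43 counts in controls and 7, 11 and 11 in knockouts (-2.40 ± 0.52). UACA, a coiled-coil protein of apoptosome regulation, had 140 and 114 CPM in controls and 66.2, 69.5 and 63.1 in knockouts (-0.94 ± 0.19). The 3 knockouts differed by less than the controls did in UACA, and all lay below both, as the choice required.

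CMC1, an assembly factor of cytochrome c oxidase, had 126 and 137 counts in controls and 63, 59 and 88 in knockouts (-1.14 ± 0.27). PPIG, a nuclear cyclophilin that binds splicing factors, had 283 and 238 CPM against 185, 142 and 150 (-0.71 ± 0.15), and CCDC25 had 154 and 130 CPM against 88.7, 85.6 and 74.1 (-0.78 ± 0.18). DESeq2 called 5 of the 15 lower genes. The other 9 had log2 differences between -0.65 (TXNDC9, a thioredoxin domain protein) and -0.48 (MRPL11, of the mitochondrial ribosome). They were TXNDC9, MRPL11, C14orf119, HINT1, RPS24, TIMM8B, NDUFS5, RPA3 and TXNDC17. HINT1, a nucleotide hydrolase, had equal controls at 316 and 317 CPM and knockouts at 231, 239 and 199. Coordinates on GRCh38 are chromosome 6, 136557047 to 136792518 for MAP3K5, chromosome 1, 63523372 to 63572693 for EFCAB7, chromosome 17, 58489529 to 58517905 for MTMR4 and chromosome 1, 156249224 to 156282825 for SMG5.

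WA09 controls give a second reference level, though from another line. With all 8 libraries scaled together, the WA09 control mean lay above both WTC11 controls in 13 of the 15 higher genes and below every knockout in 12 of them. GPR161, for example, had 36.1 CPM ± 14.1 (SD, n = 2) in WA09 controls on that scale, while WTC11 controls had 5.19 ± 1.52 (SD, n = 2) and knockouts 34.0 ± 6.74 (SD, n = 3) on the scale of the 5 libraries. In the 15 lower genes the WA09 mean lay above every knockout in 15 and below both WTC11 controls in 9. Both sets were chosen because these WTC11 controls lay apart from the knockouts. That choice alone favours a WA09 mean on the far side of the WTC11 controls or between the groups, so the counts are no independent support. The same shares over all genes were not computed.

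Transcript length went with the direction of the difference across the whole table. Over 12031 genes with an annotated transcript, Spearman's rho between the log2 difference and the length of the longest transcript was 0.40, across genes, which share the 5 libraries. The shortest quartile of genes, up to 2390 bases, had a median of -0.26, with 42.0% entirely lower and 3.69% entirely higher. Successive quartiles had medians of 0.02, 0.18 and 0.25, and in the longest, from 5476 bases, 27.1% were entirely higher and 7.68% entirely lower. Each knockout had the trend when set against the control mean: -0.18, -0.26 and -0.34 in the shortest quartile and 0.17, 0.30 and 0.32 in the longest, for knockouts 1, 2 and 3. The controls stayed within 0.03 of their mean in every quartile. All 15 higher genes named above had transcripts of 4442 bases or more, above the median of 3694 over all genes, and after each library's length trend was taken out they stood at 0.64 to 2.47. Of the 15 lower genes 14 stayed lower with that trend removed, and NDUFS5, with the shortest transcript at 548 bases, stood at 0.02.

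**Figure D2:**
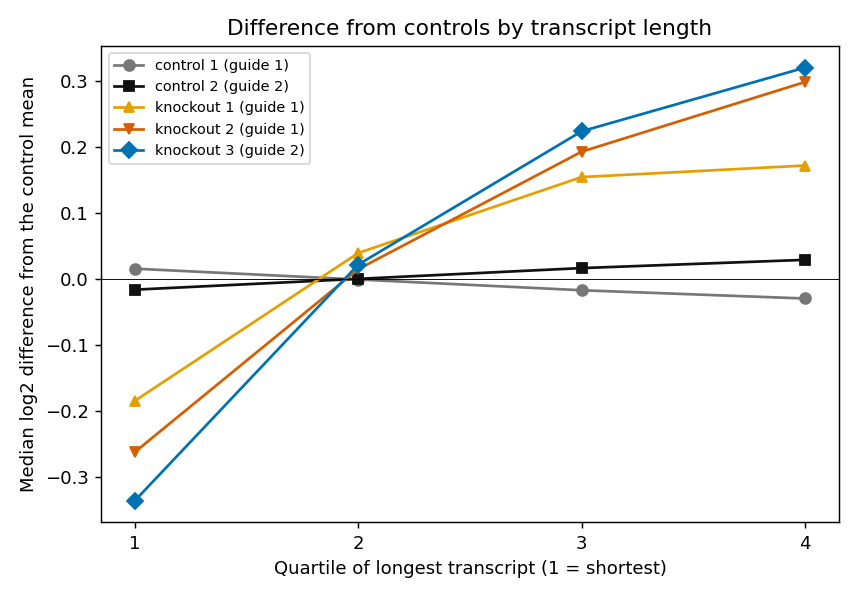
Median log2 difference of each library from the mean of the 2 controls (y axis), for genes in quartiles of longest transcript length (x axis), 1 line per library. The 3 knockout lines run from -0.18, -0.26 and -0.34 in the shortest quartile to 0.17, 0.30 and 0.32 in the longest, while both control lines stay within 0.03 of 0.

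Counts per base of transcript, a measure of how densely a transcript was covered, ran against length (rho -0.44). In the quartile of genes covered most densely the median difference was -0.12, and in the sparsest it was 0.19. Within the shortest quartile of genes the median was -0.28 to -0.25 in the 3 quartiles covered more densely and -0.12 in the sparsest, and within the longest quartile it went from 0.32 in the sparsest to 0.11 in the densest. Genotype and library depth cannot be told apart in this trend, since every knockout library was deeper than both controls, and RNA quality is not given in the sources used here.

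Genes of the ribosome and of mitochondrial respiration, most of them short, were lower in nearly every case. Cytosolic ribosomal protein genes had a median of -0.35 over 83 tested, with 82 lower and 75 (90.4%) entirely lower, beside 0.03 and 18.8% over all genes. RPS24 had 231 and 204 CPM in controls and 161, 149 and 133 in knockouts (-0.57 ± 0.14), and RPL27 had 305 and 292 CPM against 232, 236 and 199. RPL8, the most abundant, had 467 and 447 CPM against 383, 419 and 340. Their raw counts were nearly level in spite of the deeper knockout libraries: RPL8 had 1022 and 1000 counts in controls and 1006, 958 and 965 in knockouts. Summed over the list, the knockouts held 0.969, 0.864 and 0.912 times the control mean in raw counts, while their library totals were 1.20, 1.09 and 1.31 times it. Ribosomal protein genes have many processed pseudogenes, and how reads shared with these were assigned is not given in the sources used here. Taking out the length trend left a median of -0.16.

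Nuclear-encoded subunits of the respiratory chain and ATP synthase had a median of -0.42, with 72 of 75 lower and 67 (89.3%) entirely lower, beside 18.8% of all genes. UQCRQ of complex III had 171 and 153 CPM in controls and 117, 101 and 96.3 in knockouts (-0.63 ± 0.16), and COX7B of complex IV had 188 and 175 CPM against 131, 128 and 105. ATP5B, the catalytic subunit of ATP synthase and the most abundant, had 957 and 947 CPM against 839, 899 and 796 and an almost even raw count (2094 and 2118 against 2204, 2058 and 2256). Mitochondrial ribosomal proteins had a median of -0.37, with 68 of 75 lower and 54 entirely lower, among them MRPL51 with 235 and 221 CPM in controls and 175, 163 and 164 in knockouts. MRPL21 had 174 and 150 CPM against 114, 111 and 88.5. Without the length trend the medians were -0.13 for respiratory subunits and -0.11 for mitochondrial ribosomal proteins.

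The 15 genes of the mitochondrial genome had a median of -0.14, with 6 entirely lower. The median was 0.31 with the length trend removed and -0.0579 without knockout 3. MT-RNR2, the large ribosomal RNA, had 2286 and 2311 counts in controls and 2303, 2302 and 2227 in knockouts. MT-ND3 had 79.1 and 78.2 CPM against 59.7, 68.2 and 44.1. Mitochondrial transcripts took 0.408% and 0.410% of all counts in controls and 0.370%, 0.405% and 0.344% in knockouts.

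Of 35 proteasome subunits 30 were lower, with a median of -0.27 and 24 (68.6%) entirely lower, beside 18.8% of all genes. PSMD6 had 272 and 276 CPM in controls and 212, 201 and 217 in knockouts (-0.38 ± 0.11), and PSMD14, the deubiquitinase of the lid, had 408 and 362 CPM against 319, 300 and 273. Their transcripts are 4583 and 4890 bases long, and with the length trend removed they stood at -0.55 and -0.56, further from 0 than before. PSMB3, with a transcript of 773 bases, had 283 and 275 CPM against 221, 224 and 193 and stood at 0.07 without that trend. All 8 CCT chaperonin subunits tested, which fold actin and tubulin, were lower, with a median of -0.15. Of the 8, 5 (62.5%) were entirely lower, beside 18.8% of all genes. Among the 5 was CCT8, with 602 and 591 CPM in controls and 523, 537 and 452 in knockouts. CCT2 had 746 and 693 CPM against 655, 613 and 560.

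**Figure D3:**
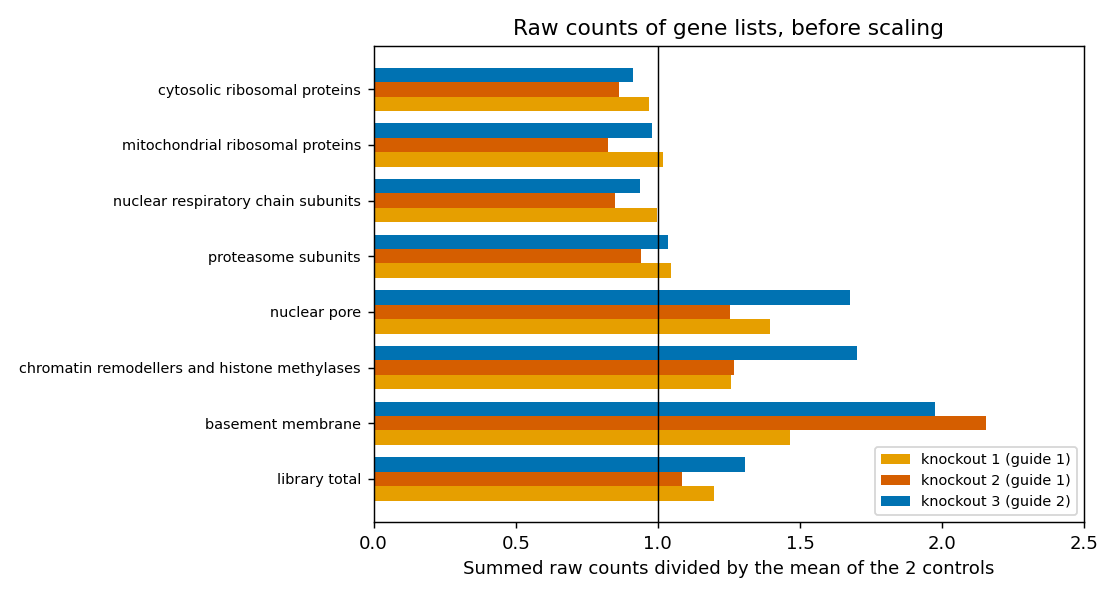
Raw counts summed over gene lists in each knockout, divided by the mean of the 2 controls (x axis, linear from 0) as bars, with the library totals in the last row and a line at 1. The ribosomal, respiratory and proteasome lists lie between 0.825 and 1.05 although the library totals lie at 1.20, 1.09 and 1.31; nuclear pore, chromatin and basement membrane lists lie above the totals.

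Intraflagellar transport genes, the cargo adaptors of kinesin-2, had no common direction. Of 20 tested, 9 were higher and 11 lower. Of the 20, 1 was entirely higher and 4 entirely lower, beside 18.0% and 18.8% of all genes, so the entirely lower share was near that of all genes. All 4 were among the 10 members with transcripts of 3694 bases or less, a class in which 1729 of 6019 genes were entirely lower. The median of -0.08 was 0.0063 without the length trend, and with 1 library left out it ran from -0.20 (without knockout 1) and -0.17 (without control 2) to -0.0236 (without control 1) and 0.0109 (without knockout 3), with -0.12 without knockout 2. IFT140, of the retrograde complex A, was the 1 entirely higher member, with 36 and 13 counts in controls and 88, 86 and 94 in knockouts (1.64 ± 0.47). IFT81, a tubulin-binding subunit of complex B, was lower, with 83.2 and 45.2 CPM in controls and 35.8, 25.8 and 28.2 in knockouts (-1.10 ± 0.33). Its partner IFT74 had 79.6 and 48.7 CPM against 51.0, 38.4 and 28.9, with overlap, and IFT57, the most abundant, had 163 and 131 against 137, 102 and 124. Control 1 stood above control 2 in all 3 of these complex B genes.

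BBSome genes, whose products carry receptors out of the cilium, were lower in 7 of 9 cases, with a median of -0.34. Of the 9, 4 (44.4%) were entirely lower, beside 18.8% of all genes. BBS12, a chaperonin-like assembly factor, had 51.7 and 29.5 CPM in controls and 20.5, 26.6 and 16.6 in knockouts (-0.93 ± 0.38). BBS7 had 71.8 and 62.2 CPM against 49.1, 45.9 and 51.5 (-0.45 ± 0.23), and BBIP1, the smallest subunit, had 56 and 45 counts against 36, 32 and 38 (-0.74 ± 0.38). BBS4 had 121 CPM in both controls and 120, 79.9 and 87.1 in knockouts. The list median did not shrink with the length trend removed (-0.36). It was -0.19 with the number of detected genes as a covariate and -0.15 without knockout 1.

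Of the 13 Hedgehog pathway genes listed, 11 passed the filter and these 11 were higher, at low levels, with a median of 0.83 and 5 entirely higher (45.5%, beside 18.0% of all genes). GPR161, a receptor that keeps the pathway off in the cilium, had 9 and 14 counts in controls and 99, 60 and 108 in knockouts (2.70 ± 0.44). CDON, a co-receptor for the ligand, had 12 and 6 counts against 47, 28 and 49 (1.94 ± 0.58). GLI1, a transcription factor and itself a pathway target, had 1 and 5 counts against 10, 13 and 26, and its relatives GLI2 (0.51) and GLI3 (0.83) were entirely higher too. SMO, the signal transducer and the most abundant member, had 39 and 59 counts against 94, 52 and 110, with overlap. KIF7, a ciliary kinesin of the pathway, had 23 and 14 counts against 27, 75 and 61. GLI1 passed the filter only through the knockouts. With 10 counts required in all 5 libraries the median was 0.58. It was also 0.58 with the length trend removed, 0.23 with the number of detected genes as a covariate, 0.30 without control 1, 1.51 without control 2 and 0.40 without knockout 3.

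Adherens junction genes had a median of 0.39, with 11 of 13 higher and 8 (61.5%) entirely higher, beside 18.0% of all genes. Their median was 0.39 without the length trend, 0.61 without knockout 1 and 0.26 without knockout 2. CDH1, E-cadherin, had 189 and 171 CPM in controls and 296, 350 and 311 in knockouts. CTNND1, the p120 catenin that stabilises cadherins at the surface, had 205 and 185 CPM against 249, 430 and 351 (0.82 ± 0.21), and CTNNA1, the link to actin, had 267 and 336 CPM against 380, 494 and 439 (0.53 ± 0.15). VCL, vinculin, had 501 and 559 CPM against 625, 1157 and 679. Knockout 2 was the highest library in each of the 4.

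Tight junction and desmosome genes were mixed. OCLN, occludin, had 42.5 and 31.3 CPM in controls and 60.5, 126 and 70.5 in knockouts (1.21 ± 0.36), and TJP1, the ZO-1 scaffold, had 148 and 143 CPM against 166, 311 and 218. CLDN7 had 193 and 198 CPM against 159, 152 and 124, and CLDN6, the most abundant claudin, had 461 and 479 CPM against 407, 412 and 384. The scaffold and occludin have long transcripts and the claudins short ones, and the median of the 13 was -0.19, with -0.0491 without control 1, -0.0845 without control 2 and -0.0647 with the length trend removed. DSG2, a desmosomal cadherin, had 179 and 184 CPM against 229, 254 and 213, and PKP2 had 32.9 and 43.8 CPM against 44.1, 145 and 70.5; the median of 10 desmosome and keratin genes was 0.10, -0.0728 without the length trend, -0.036 without knockout 2, 0.0373 without control 1, 0.17 without knockout 1 and 0.30 without control 2.

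Polarity and Hippo scaffolds had more members higher than lower. DLG5, a scaffold at cell junctions, had 22 and 15 counts in controls and 122, 115 and 118 in knockouts (2.45 ± 0.36), and CRB2, an apical Crumbs protein, had 0 and 2 counts against 22, 15 and 38. LLGL2, its basolateral counterpart, had 71.8 and 87.2 CPM against 117, 103 and 136. CRB2 passed the filter only through the knockouts. Of 19 polarity genes 8 (42.1%) were entirely higher and 0 entirely lower, beside 18.0% and 18.8% of all genes. Transcripts of 15 of them were longer than 3694 bases, a class in which 1581 of 6012 genes were entirely higher. The polarity median of 0.18 was 0.0928 with the length trend removed, 0.37 without control 1, 0.33 without control 2 and 0.32 without knockout 1. Upstream Hippo regulators had a median of 0.28, with 14 of 19 higher and 7 (36.8%) entirely higher, beside 18.0% of all genes. Their median was 0.091 with the length trend removed, 0.12 without control 2 and 0.42 without control 1. FRMD6 had 20.1 and 19.7 CPM in controls and 38.4, 67.3 and 48.3 in knockouts (1.36 ± 0.34), WWC2 had 111 and 122 CPM against 136, 210 and 159, and AMOTL2 had 46.6 and 27.3 against 62.0, 111 and 50.4. These 3 bind or activate the kinases that restrain YAP and TAZ.

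Basement membrane genes had a median of 0.75, with 15 of 17 higher and 9 entirely higher (52.9%, beside 18.0% of all genes). All 17 had transcripts longer than 3694 bases, and the median was 0.48 with the length trend removed. LAMB1, a laminin beta chain, had 46.6 and 47.4 CPM in controls and 69.2, 126 and 117 in knockouts (1.15 ± 0.29), and LAMB2 had 67.7 and 44.7 CPM against 92.8, 121 and 119 (0.98 ± 0.25). DAG1, the laminin receptor dystroglycan, had 164 and 163 counts against 355, 285 and 380 (0.83 ± 0.17). LAMC1, the shared gamma chain, had 150 and 147 CPM against 153, 253 and 201. Without knockout 2 the median was 0.37: in that library NID1, nidogen, had 375 counts, against 123 and 141 in the other knockouts, and FN1, fibronectin, 773 against 236 and 426. Focal adhesion adaptors had 13 of 14 members higher and a median of 0.42, which was 0.20 without knockout 2 and 0.25 with the length trend removed. TNS3 had 9.60 and 14.8 CPM in controls and 26.3, 28.4 and 32.4 in knockouts, and BCAR1 had 146 and 106 against 189, 236 and 165.

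FLNA, filamin A, had 556 and 569 CPM in controls and 764, 1318 and 980 in knockouts (0.86 ± 0.20), and MYH9, the non-muscle myosin heavy chain, had 173 and 184 CPM against 265, 567 and 395 (1.19 ± 0.28). DESeq2 called both. The median of 27 actomyosin genes was 0.12, -0.19 without knockout 2, 0.22 without knockout 3, 0.0715 without control 2 and 0.0031 with 10 counts required in all 5 libraries. The 11 members with transcripts of 3694 bases or less had a median of -0.15 and the 16 longer ones 0.29.

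CLTC, the clathrin heavy chain, had 378 and 327 CPM in controls and 484, 766 and 716 in knockouts (0.90 ± 0.19), and GGA2, a Golgi adaptor for clathrin, had 105 and 108 CPM against 194, 230 and 272. VPS29 of the retromer, with a transcript of 1523 bases, had 188 and 169 CPM against 122, 128 and 96.6 (-0.63 ± 0.17). Among 24 sorting adaptors the 13 longer ones had a median of 0.44, with 9 entirely higher, and the 11 shorter ones -0.05. Over all genes, 1581 of the 6012 longer ones were entirely higher. GCC1, a golgin of the trans-Golgi, had 21 and 56 counts in controls and 192, 212 and 242 in knockouts (2.27 ± 0.39), and COG4 of the Golgi tether had 68.6 and 78.2 CPM against 99.3, 136 and 117. Coat genes of the early secretory pathway had a median of 0.29. Of the 19, 7 (36.8%) were entirely higher and 2 (10.5%) entirely lower, beside 18.0% and 18.8% of all genes. The median was 0.14 without knockout 3, 0.16 without control 1, 0.0506 with guide 1 alone and 0.11 with the length trend removed. Those entirely higher included COPA (283 and 243 CPM against 390, 464 and 382), SEC23A (111 and 108 against 188, 190 and 160) and COPG1 (186 and 139 against 233, 266 and 268). In the exocyst, which tethers vesicles at the plasma membrane, EXOC6B had 43 and 95 counts against 194, 372 and 463, and EXOC7 had 64.9 and 81.8 CPM against 87.9, 127 and 124.

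Nuclear pore genes had a median of 0.36, with 22 of 29 higher and 12 entirely higher (41.4%, beside 18.0% of all genes). NUP205, which pairs with NUP93 in the inner ring, had 246 and 183 CPM in controls and 315, 343 and 378 in knockouts (0.68 ± 0.15), and NUP93 had 281 and 258 CPM against 308, 376 and 361. The median was 0.12 with the length trend removed or with the detected-gene covariate, and 0.22 without knockout 3 or without control 1. Nonsense-mediated decay genes had a median of 0.47 and 11 of 16 higher. Besides SMG5, CASC3 of the exon junction complex had 165 and 131 CPM against 180, 202 and 246. The decay list stood at 0.0134 with the detected-gene covariate, 0.23 with the length trend removed, 0.17 without control 1, 0.30 without control 2 and 0.27 without knockout 3.

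Spliceosome genes had a median of -0.13, and -0.0129 with the length trend removed. The 17 members with longer transcripts had a median of 0.18, with 8 entirely higher and 5 entirely lower, and the 32 shorter ones -0.25, with 3 and 19. Over all genes, the 6012 longer ones held 1581 and 533, and the 6019 shorter ones 580 and 1729. PRPF8, the scaffold at the catalytic core, had 283 and 334 CPM in controls and 414, 567 and 620 in knockouts (0.79 ± 0.17). SNRNP200, the helicase that unwinds U4 from U6, had 203 and 270 CPM against 338, 439 and 577 (0.93 ± 0.22), and AQR, another helicase, had 129 CPM in both controls against 237, 207 and 277. Large chromatin enzymes had a median of 0.30, which was 0.0496 without the length trend, 0.16 without knockout 3 and 0.18 without control 1. Of the 40, 13 (32.5%) were entirely higher and 1 (2.5%) entirely lower, beside 18.0% and 18.8% of all genes. KDM6A, an X-linked histone demethylase, had 119 and 110 CPM against 155, 254 and 199, KDM5C had 57.1 and 86.7 against 130, 115 and 156, and EHMT1 had 63.5 and 97.9 against 143, 156 and 130.

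**Figure D4:**
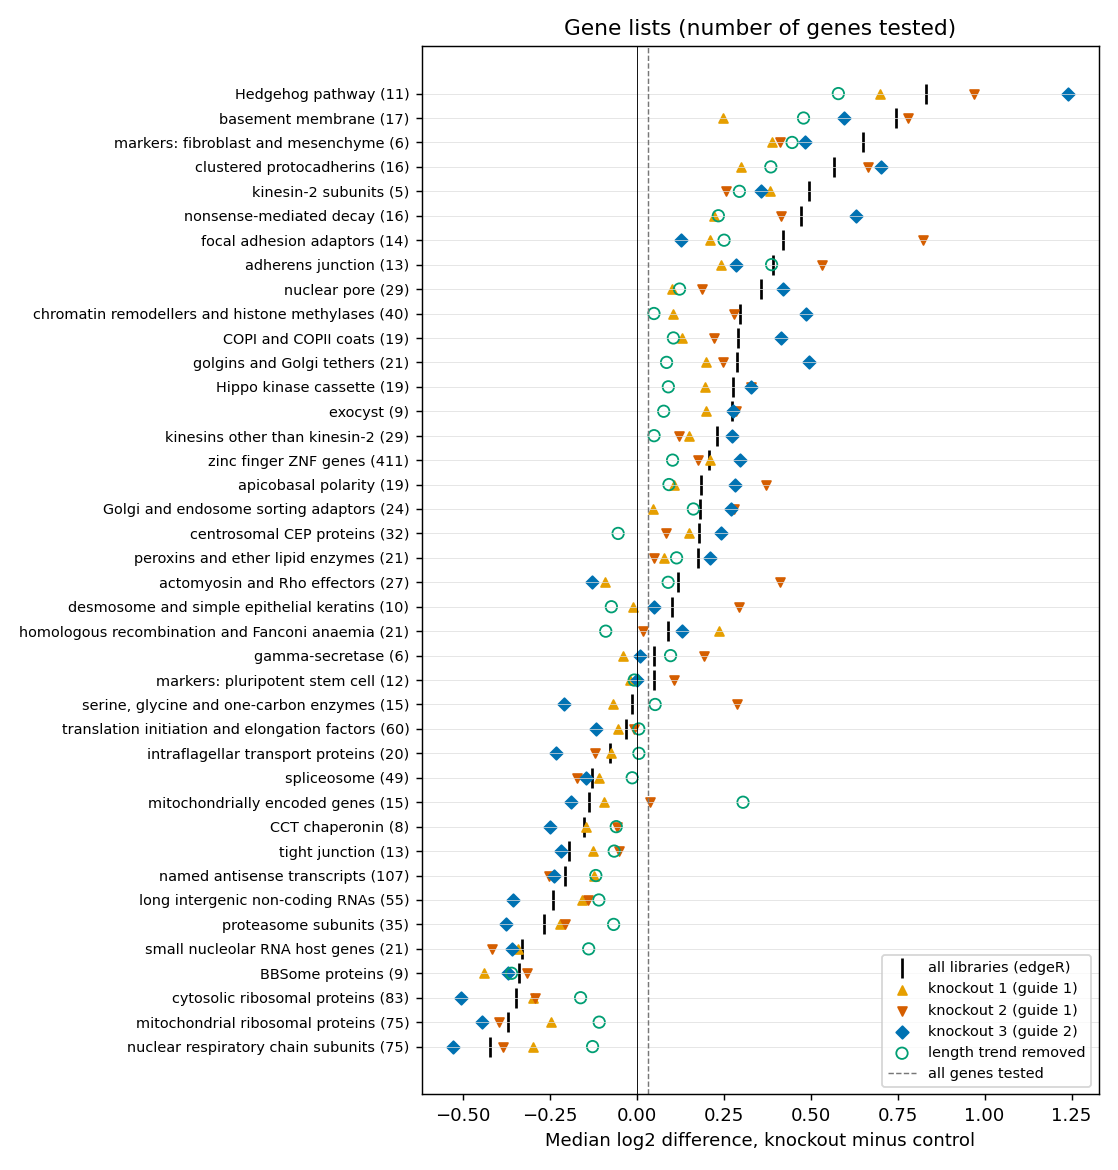
Median log2 difference (x axis) of each gene list with at least 5 genes tested, in numbers beside the names: black bars for the edgeR fit, coloured symbols for each knockout against the control mean of smoothed log2 CPM, open circles with the length trend removed. Hedgehog (0.83) and basement membrane genes (0.75) lie furthest right and respiratory subunits (-0.42) furthest left, and the dashed line marks all genes (0.03). A list's edgeR median can lie outside its library symbols because smoothing pulls low counts together.

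In the Fanconi anaemia pathway FANCI had 129 and 165 CPM in controls and 222, 278 and 249 in knockouts (0.76 ± 0.16), FANCE had 31 and 26 counts against 123, 79 and 63, and the helicase BRIP1 had 43.4 and 39.3 CPM against 78.4, 65.1 and 69.8. The median of 21 repair genes was 0.0904, -0.14 without control 2, 0.0213 without knockout 1, 0.18 without control 1 or knockout 2 and -0.089 with the length trend removed. GLDC, of the glycine cleavage system, had 89.6 and 129 CPM against 185, 152 and 167, ALDH18A1 of proline synthesis had 223 and 224 against 282, 260 and 303, and SHMT1 had 54.9 and 70.6 against 105, 79.9 and 97.3; their list lay at -0.0127, and between -0.0995 and 0.0954 with 1 library left out. The peroxisomal import receptor PEX5 had 41.1 and 45.2 CPM against 73.4, 58.1 and 86.1, and AGPS, which acts after FAR1 in ether lipid synthesis, had 158 and 131 against 181, 223 and 180. Of 21 peroxisome and ether lipid genes 13 were higher and 8 lower. Among them 5 (23.8%) were entirely higher and 4 (19.0%) entirely lower, beside 18.0% and 18.8% of all genes. Their median of 0.18 was -0.0501 without control 2.

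Gamma-secretase cuts Notch and other membrane proteins. Its subunit APH1B had 49 and 36 counts in controls and 171, 146 and 150 in knockouts (1.65 ± 0.30). The 4 subunits with shorter transcripts had a median of -0.27.

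Zinc finger genes, mostly transcriptional repressors, were higher in 286 of 411 cases, with 93 entirely higher (22.6%, beside 18.0% of all genes). Their median of 0.21 was 0.10 with the length trend removed. ZNF594 had 29 and 30 counts in controls and 92, 136 and 163 in knockouts (1.92 ± 0.37), and ZNF426 had 55.8 and 73.3 CPM against 117, 144 and 135. Clustered protocadherins, whose transcripts share their last exons and so cannot be fully separated by counts, had 12 of 16 members higher. Of the 16, 2 (12.5%) were entirely higher, beside 18.0% of all genes. Their median of 0.57 was 0.0438 with guide 2 alone. PCDHA11 had 43 and 39 counts against 105, 94 and 98, and PCDHAC1 had 24 and 17 against 7, 12 and 8. Among centrosomal proteins CEP128 had 10 counts in each control against 48, 24 and 85, while the list median of 0.18 was -0.0533 with the length trend removed and 0.0736 without knockout 3.

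Non-coding transcripts are described by 3 lists made from their names. Host genes of small nucleolar RNAs had a median of -0.33, and -0.14 with the length trend removed. Of the 21, 8 (38.1%) were entirely lower, beside 18.8% of all genes. Most were short: 20 had transcripts of 3694 bases or less, a class in which 1729 of 6019 genes were entirely lower. The 8 included SNHG5 (136 and 141 CPM in controls, 97.4, 104 and 82.9 in knockouts), SNHG6 (66.3 and 53.2 against 39.9, 34.9 and 32.8) and SNHG8 (61.3 and 64.4 against 44.1, 36.7 and 36.3). Transcripts named as antisense had a median of -0.21 over 107, which was -0.0915 without control 1, -0.34 without control 2 and -0.12 with the length trend removed. FOXD3-AS1 had 109 and 102 CPM against 78.0, 64.2 and 53.6 and MAPKAPK5-AS1 had 123 and 82.7 against 70.8, 46.3 and 58.9; reads of such genes and of their overlapping partners cannot be separated without strand. LINC00678, with 238 and 227 CPM against 192, 187 and 147, was the most abundant intergenic transcript. LINC00664, with 0 and 5 counts against 16, 34 and 33, was entirely higher, but it passed the filter only through the knockouts. The 55 intergenic transcripts had a median of -0.24, -0.11 with the length trend removed, and 18.2% were entirely lower beside 18.8% of all genes.

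Translation factors had no shared direction (27 of 60 higher). EIF3E had 436 and 381 CPM in controls and 347, 336 and 299 in knockouts. EEF1AKMT3, a methyltransferase that modifies an elongation factor, had 0 and 6 counts against 50, 18 and 26. It passed the filter only through the knockouts.

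Pluripotency markers lay on both sides. PODXL, a surface sialomucin, had 344 and 486 CPM in controls and 592, 761 and 813 in knockouts (0.80 ± 0.18), and SALL4 had 250 and 326 CPM against 392, 456 and 492 (0.63 ± 0.15); DESeq2 called both. L1TD1, an RNA-binding protein of pluripotent cells, had 1016 and 964 CPM against 867, 735 and 673 (-0.38 ± 0.11), and TERF1 of the telomere was lower too (-0.47). DNMT3B, the most abundant, had 1315 and 1576 CPM against 1435, 1718 and 1489, with overlap, and LIN28A lay at 0.16. POU5F1 (-0.25) and SOX2 (-0.17) were entirely lower. Markers of other cells were few: of 44 neuroectoderm, mesoderm, endoderm, trophectoderm and neural crest markers 10 passed the filter.

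Of 10 fibroblast and mesenchyme markers 6 passed the filter and 5 of the 6 were higher, with a median of 0.65 that was 0.21 without control 1, 1.01 without control 2 and 0.15 with the detected-gene covariate; DCN and LUM were at 0 in all 5 libraries. Summed, the list stood at 573 and 609 CPM in the controls and at 586, 807 and 516 in the knockouts. COL1A1, the fibrillar collagen, had 21.0 CPM in both controls and 36.9, 125 and 33.5 in knockouts, and COL1A2 had 118 and 133 CPM against 164, 314 and 156. THY1, also a surface antigen of pluripotent cells, had 421 and 431 CPM against 361, 346 and 292. In bulk libraries fewer cells of a type and less RNA per cell cannot be told apart. The part of these markers in the basement membrane, focal adhesion and actomyosin values, which also peaked in knockout 2, was not tested.

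Knockout 2 also had genes of its own. In 8 genes with at least 50 counts its CPM, with 1 added, was at least 4-fold above that of every other library, against 1 such gene in control 1 and 0 in the other 3 libraries. Among them were FLNC (406 counts against 3 to 44 elsewhere), ANXA1 (463 against 1 to 62), CER1 (148 against 6 to 34), TFAP2C (145 against 3 to 33), RFTN1 (102 against 4 to 28), CXCL5 (87 against 5 to 16) and MYOCD (65 against 0 to 14). FLNC is a muscle filamin and CER1 a secreted antagonist of Nodal and BMP. ME1, the malic enzyme, was all but missing from that library, with 2 counts against 91 to 137 in the other 4. Knockout 3 had 24 counts of LEFTY1, a Nodal antagonist, against 86 to 174 elsewhere.

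Control 1 was the library with most genes at or near 0. In 22 genes with at least 50 counts in each of the other 4 libraries it lay at least 4-fold below every other library, against 3 in control 2, 0 in knockout 1 and 1 each in knockouts 2 and 3. Examples are CTNND2, a catenin of neurons, with 1 count against 74 to 146, ZNF112 with 0 against 51 to 67, and FAM160A1 with 1 against 57 to 104. In control 2 DNAJC15, a mitochondrial co-chaperone, had 3 counts against 79 to 172. Of the genes tested 151 had 0 counts in control 1 and 63 in control 2, against 11, 26 and 12 in the knockouts. The filter bears on this, since 3 knockouts alone could pass a gene and 2 controls could not: 140 genes passed with neither control at 10 counts, and 60 with both controls and no knockout at 10 were left out.

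There were 13 genes with at least 10 counts in every knockout and at most 1 in each control. CDH6, a cadherin of kidney and neural tissue, had 1 count in each control and 23, 80 and 27 in knockouts, MAN2B2, a lysosomal mannosidase, 1 and 0 against 44, 27 and 26, and ZNF783 0 and 1 against 37, 21 and 37. MYOCD, a co-activator of smooth muscle genes, had 0 in both controls and 10, 65 and 14 in knockouts, PLXNA4, a semaphorin receptor, 0 in both against 23, 33 and 19, and DCAF12L2 0 in both against 16, 10 and 30. FUK, the fucose kinase, had 1 in each control against 32, 35 and 15, and SMOC2, a matrix protein, 0 and 1 against 17, 14 and 47. The WA09 controls, which carry no KIF3B edit, held 0 and 23 counts of CDH6, 20 and 14 of MAN2B2 and 25 and 28 of FUK. They held 13 and 53 of ZNF783, 10 and 5 of MYOCD and 19 and 10 of SMOC2. PLXNA4 had 4 and 0 there, and DCAF12L2 had 0 in both. In the other direction there were 2 genes, OLFM3 (15 and 14 counts in controls, 1, 0 and 0 in knockouts) and LINC02361 (12 and 10 against 0 in all 3). These are raw counts, and every knockout library was deeper than both controls. Near-absence was asked of 2 libraries in the first direction and of 3 in the second. The 13 and the 2 are therefore not matched counts.

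The guides offer 2 contrasts that share no library. Guide 1 sets knockouts 1 and 2 against control 1, and guide 2 sets knockout 3 against control 2. Over the 10313 genes with a mean of at least 10 CPM, Pearson's r between the log2 differences of the 2 contrasts was 0.29 across genes, which are not independent, and 65.8% had the same sign. A log2 difference of at least 1 was seen in 913 genes with guide 1 and 813 with guide 2, and in both for 215, which is a share of 23.5% of the first and 26.4% of the second. A log2 difference of -1 or below was seen in 275 and 325 genes, and in both for 33, which is 10.2% of those with guide 2. All 30 named genes had the same sign with both guides, as the absence of overlap between their groups requires. For KIF3B itself the differences were 0.40 and 0.50. KIF17 (-0.73 and 2.63), KIF3C (-0.38 and 1.09) and KIF3A (-0.40 and 0.0152) differed between guides in sign. A difference between guides was fitted with edgeR only, and knockouts 1 and 2 were the only libraries in it that shared guide and genotype. With so little replication the fit can show neither agreement nor difference between guides, and its calls are not given.

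**Figure D5:**
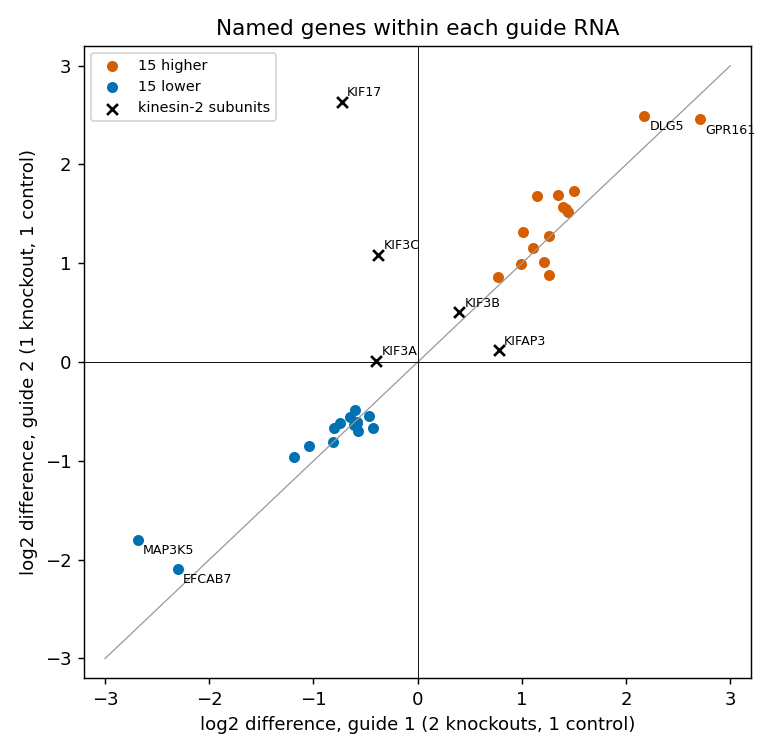
Log2 difference with guide 1 (x axis, 2 knockouts and 1 control) and guide 2 (y axis, 1 knockout and 1 control) for the 15 higher genes, the 15 lower genes and the kinesin-2 subunits, with the line of equal values. The 30 genes lie in the lower left and upper right quadrants, and KIF17 (-0.73 and 2.63), KIF3C (-0.38 and 1.09) and KIF3A (-0.40 and 0.0152) lie in the upper left.

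The length trend was seen with each guide, at -0.25 and -0.33 in the shortest quartile and 0.24 and 0.25 in the longest. List medians with guides 1 and 2 were -0.29 and -0.49 for cytosolic ribosomal proteins, -0.36 and -0.50 for respiratory subunits, 1.11 and 0.87 for Hedgehog genes, 0.57 and 0.76 for basement membrane and 0.36 and 0.28 for adherens junctions. Focal adhesion adaptors stood at 0.54 with guide 1, which includes knockout 2, and 0.09 with guide 2. By chromosome, over the autosomes and X, no median left the range from -0.02 to 0.10.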

How the data were processed

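The authors deposited 1 table of raw counts per gene for 8 RNA-seq libraries, named with STAR and hg38 in the submitters' processing notes; the sources used here give no versions, counting tool, annotation or handling of duplicate reads. Samples were grouped by the labels. Genes with at least 10 counts in 3 or more of the 5 WTC11 libraries were tested with edgeR 4.0.16 (robust quasi-likelihood F test, TMM scaling, Benjamini-Hochberg adjustment, threshold 0.05) in R 4.3.3. Alternatives used DESeq2 1.42.0, limma 3.58.1 (voom), other scalings, filters, covariates and libraries left out. The SE is the one implied by the fold change and F. The fit was tested on simulated data. Transcript lengths and coordinates are from GENCODE 29 on GRCh38, which matched 12031 of the 12038 genes tested; 20993 entries of the table carry no gene name.

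Members and gene lists were chosen with earlier results of these data known. Since no gene was called, the text names the 15 higher and 15 lower genes with the smallest unadjusted p (mean of at least 10 CPM, no overlap), the kinesin-2 subunits, per list up to 3 genes with the smallest p and the most abundant one, genes on in 1 group only, and genes apart in 1 library. POU5F1, SOX2, NANOG, LIN28A, TERF1, GLI2, GLI3, KIF7, NID1, FN1 and PAM fall outside that rule and were chosen after their values were seen. A few genes that the rule names are not reported here. Ribosomal, mitochondrial and protocadherin genes have near-identical copies or shared exons, so their counts are uncertain, and overlapping or antisense genes cannot be separated without strand. Library totals ran from 2161890 to 2875163 counts.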

Additional observations from a re-analysis of the deposited data

How the results depend on the processing

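With 2 controls, 3 knockouts and libraries of 100 to 1000 cells, depth limits genes near 10 counts. Called genes numbered 0 under limma voom, all 8 libraries, size factors, library totals, other count minimums, the detected-gene covariate and length removal. DESeq2 called 225 (219 higher, 6 lower). Without a filter edgeR called 699 of 24054 genes (621 higher, 78 lower), 3044 at an unadjusted p under 0.05; in that fit 87.96% of genes had an infinite prior degree of freedom, against 0 with the filter. Leaving out 1 library gave 0 to 1 called genes (PAM, adjusted p = 0.0262 with edgeR, without control 2) and 1106 to 2314 at an unadjusted p under 0.05: 1106 without control 1 and 1144 without knockout 3. With the number of detected genes as a covariate there were 677 (569 higher, 108 lower); the cause was not tested.

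With guide RNA number as a replicate block, edgeR called 0 genes, with 2189 at an unadjusted p under 0.05. The deviations between guides in controls and in knockouts had a Pearson correlation of -0.0069 across 10313 genes. Few libraries stand behind each deviation, so scatter between libraries enters both. A shared effect of the guide number was not tested.

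Over 152 named genes and 16 alternatives, 2413 values were computed; 2252 kept direction and side of the threshold, 144 passed it, 55 of these with DESeq2, 88 without a filter and 1 without control 2, and 17 turned sign. With the length trend removed ATP5B stood at 0.0389, CLDN6 at 0.0047, DNMT3B at -0.0502, LINC00678 at 0.0438, MT-ND3 at 0.15, MT-RNR2 at 0.0494, NDUFS5 at 0.0206, PSMB3 at 0.0731 and RPL8 at 0.13. With the detected-gene covariate GLI2 stood at -0.0075, MT-RNR2 at 0.0209, NANOG at 0.17 and SMO at -0.28. With 1 library left out DNMT3B ran from -0.0268 (without control 1) to 0.2258, KIF3A from -0.3933 to 0.0045 (without control 1), KIF17 from -0.1666 (without control 2) to 3.3182 and KIF3C from -0.2338 (without control 2) to 0.8698. The cause was not tested.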
